A study of Sus scrofa with 9 samples.

Results

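The 10 genes described here encode transcription factors that act in the developing heart valves and in the mesenchyme they are built from: TBX20, TBX2, TBX3, GATA4, GATA6, NFATC1, NFATC4, HAND2, TCF21 and PRRX1. They were taken by symbol from the 19535 gene rows of an RNA-seq count table of porcine valvular interstitial cells (PVICs), the fibroblast-like cells that maintain the matrix of the aortic valve. All 10 symbols were found, and all 10 were among the 13662 genes with enough counts for testing.

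The cells came from aortic valve leaflets of wild type pigs aged 4 to 5 months, after the endothelial lining had been swabbed off, and were grown with serum. Control cells were kept in plain medium (DMEM). The OIM group received osteogenic medium, which holds 2 mmol/L phosphate, 50 µg/mL ascorbic acid and insulin and is used to bring on calcification. The bFGF group received the same osteogenic medium with 50 ng/mL basic fibroblast growth factor, so bFGF was never given without OIM. Each group had 3 libraries after 3 days by the labels, whereas the study's methods give a shorter treatment before RNA was taken. Neither names the pigs or cultures behind the replicates, so p-values measure the spread between these libraries, which may be technical.

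During development, endocardial cells leave the lining of the heart and become the mesenchyme of the valve cushions. T-box factors, GATA factors and the basic helix-loop-helix factor HAND2 act in this step and in the growth of the cushions, and NFATC1 marks the valve endocardium and is needed for leaflets to form. TCF21 and PRRX1 mark fibroblast and mesenchymal lineages.

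Library totals lay between 46773376 and 48270827 counts with bFGF and between 57075793 and 67371523 counts without, and the 10 genes held 247 to 66276 counts in a library. Levels are in CPM, which are counts scaled to the TMM-adjusted size of each library, and changes are log2 fold changes from edgeR's quasi-likelihood test. A gene was called where its Benjamini-Hochberg adjusted p over all genes tested was at most 0.05 and its log2 fold change at least 0.5 in size, the limits in the study's methods. The study, which used DESeq2, reports fewer genes in OIM against control and far fewer in bFGF against OIM than the 321 and 4939 called here. The reason was not tested. All 10 fibroblast markers were detected, and their summed level was 80110.1 to 86464 CPM in control, 77328 to 80498 in OIM and 47854 to 48858 in bFGF, most of it from COL1A1, COL1A2, COL3A1 and FN1. These 4 and DCN were called lower in bFGF against OIM, VIM was called higher (0.66, from 5695 to 9008 CPM), and PDGFRA, PDGFRB, LUM and THY1, at -0.059, 0.13, 0.011 and -0.40, were not called. The summed level of 10 endothelial markers was 73.7 to 76.1, 88 to 89.9 and 171 to 181 CPM, most of it from ERG. That of 8 smooth muscle and pericyte markers was 7437 to 7753, 7730 to 10471 and 1175 to 1278 CPM, most of it from ACTA2 (6787, 8449 and 738 CPM). Of these 8, 6 were called lower in bFGF against OIM, where 18.4% of all genes were, whereas RGS5 was called higher (3.33, from 0.333 to 3.36 CPM) and CSPG4 differed by 0.48, under the fold limit. The 9 cardiomyocyte markers in the table summed to 21.4 to 24.6, 44.1 to 48.8 and 48.4 to 57.5 CPM, most of it from TTN, with TNNT2, MYL2 and NPPA at 0 counts in all libraries. TTN and RYR2 were called higher in OIM against control, and in bFGF against OIM TNNI3 was called higher and RYR2 lower. The 8 macrophage markers summed to 15.2 to 18.9, 15.98 to 17.5 and 9.86 to 10.6 CPM, most of it from CD14. Of the 6 tested, CD14 and CD163 were called lower in bFGF against OIM, where 18.4% of all genes were. The remaining 4 were not called, and of these MRC1 was higher in every bFGF library than in every OIM library (means of 1.08 and 0.718 CPM). Within the OIM group, replicate 2 stood apart: its pairs with the other OIM replicates had a mean chi-square per gene of 18.4 each, against 5.78 for the remaining pair. MYH11 was at 325, 182 and 337 CPM in the 3 OIM libraries. Without OIM replicate 2 the same numbers of the 10 genes, 0, 8 and 8, were called in OIM against control, bFGF against OIM and bFGF against control. Of all 13858 genes tested in that fit, 349, 5082 and 5361 were called. The part of these markers in the results below was not tested, and in bulk libraries fewer cells of a type and less RNA per cell cannot be told apart.

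With bFGF some of the factors were higher and others lower. Between bFGF and OIM, 8 of the 10 genes were called, where 36.2% of all genes were. TBX3, TCF21 and TBX2 rose, and 17.7% of all genes were called higher. NFATC1, PRRX1, TBX20, GATA6 and NFATC4 fell, and 18.4% of all genes were called lower. GATA4 and HAND2 passed the adjusted p but not the fold limit, so that all 10 passed it, against 67.4% of all genes. The libraries of the groups did not overlap in any of the 10 genes, against 72.1% of all genes, with 4 higher (36.3%) and 6 lower (35.8%). The median log2 fold change was -0.46 over the 10 genes and -0.0029 over all genes.

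Between OIM and control, 0 of the 10 genes were called by edgeR, where 2.35% of all genes were (1.49% higher and 0.864% lower). DESeq2 also called 0. At an unadjusted p of at most 0.05 without the fold limit there were 5 in edgeR, against 26.2% of all genes, and 4 in DESeq2, against 25.5%. With the fold limit there were 0 in both, against 4.02% in edgeR. With a fold limit of 1 in place of 0.5, 0 of the 10 were called in OIM against control, 3 in bFGF against OIM and 5 in bFGF against control, against 0.666%, 18.0% and 20.2% of all genes. The adjusted p alone was passed by 3, TBX20, PRRX1 and TBX2, against 13.6% of all genes. The groups did not overlap in 6 genes, against 28.8% of all genes, with 2 higher in OIM (14.5%) and 4 lower (14.2%). The median was -0.018 on the log2 scale over the 10 genes and -0.0019 over all genes.

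**Figure D1:**
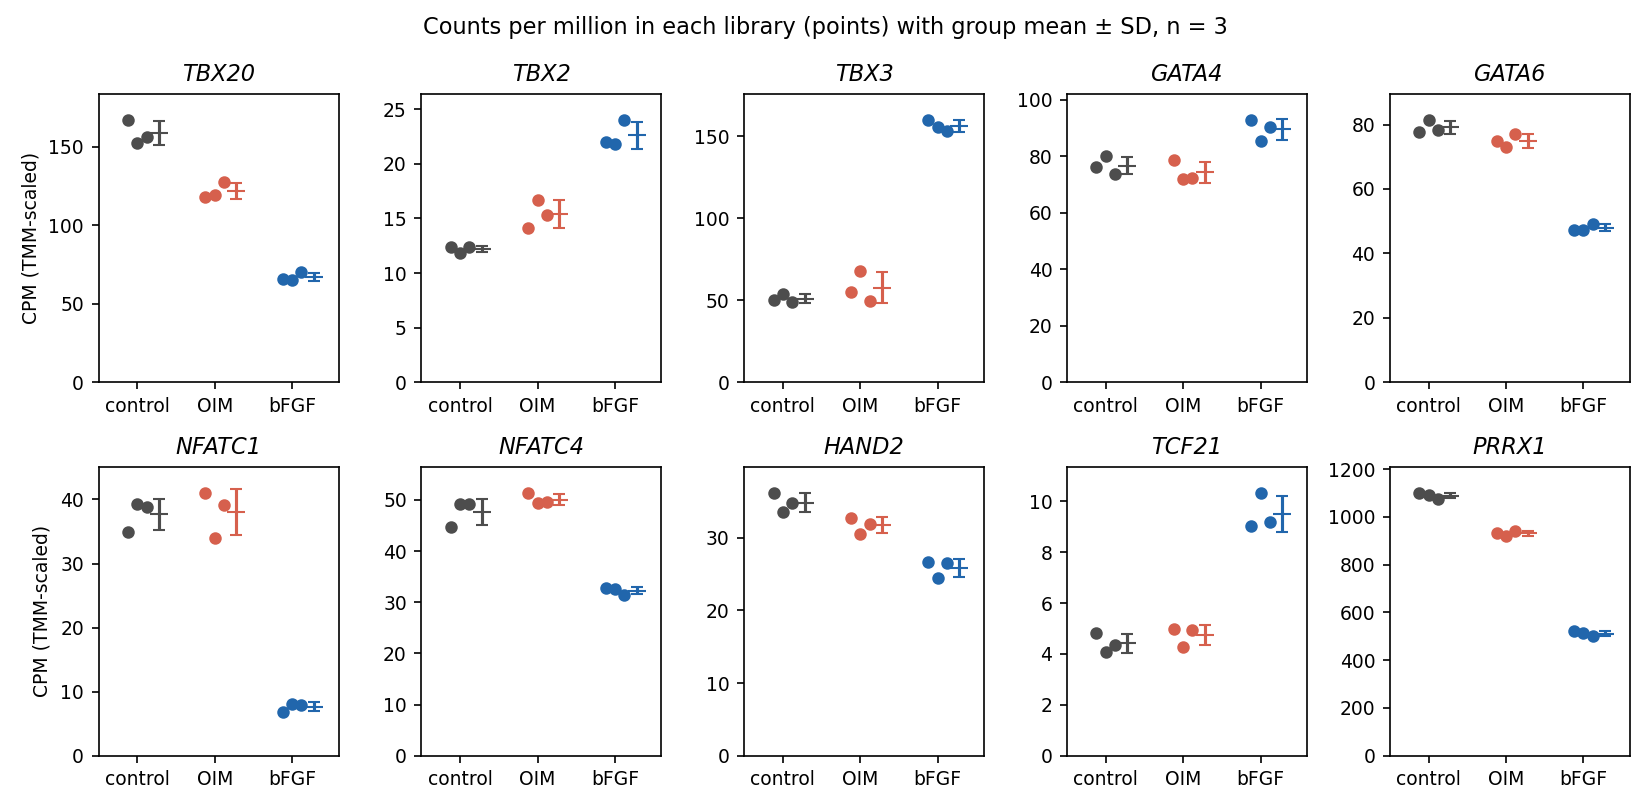
Level of each of the 10 genes in CPM (vertical axis from 0, with its own scale in each panel) in the 3 libraries of the control, OIM and bFGF groups, as points, with the group mean ± SD (n = 3) beside them. The bFGF points of NFATC1, at 6.81 to 8.11 CPM, lie far below those of the other groups, and those of TBX3, at 153 CPM and above, lie far above.

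**Figure D2:**
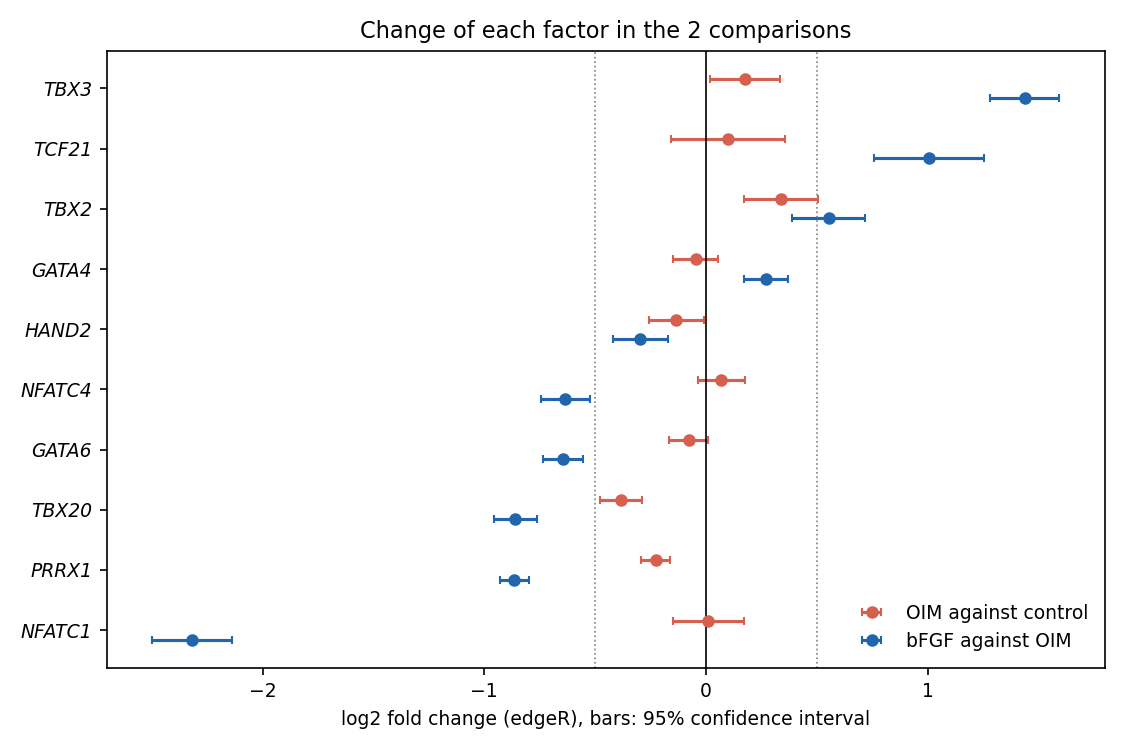
The log2 fold change of each gene from edgeR (horizontal axis) with its 95% confidence interval as a bar, for OIM against control (red) and bFGF against OIM (blue), and dotted lines at the fold limit of 0.5 either way. The blue points run from -2.32 for NFATC1 to 1.44 for TBX3, and the red points from -0.38 for TBX20 to 0.34 for TBX2.

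Among the T-box factors, TBX20 is needed for the growth of heart progenitors and of the cushions. It spans chromosome 18 from 38635603 to 38681690 (plus strand, build Sscrofa11.1, as for all positions here). Its levels were 167, 153 and 156 CPM in control, 118, 119 and 128 CPM in OIM, and 66.03, 64.9 and 70.2 CPM in bFGF. The groups formed 3 separate steps, each lower than the one before. In bFGF against OIM it fell by 0.86 on the log2 scale (SE 0.046, adjusted p = 1.93e-12 by edgeR), which means that its level fell by 44.9%. In OIM against control its log2 fold change was -0.38 (SE 0.045, adjusted p = 7.09e-06 by edgeR), under the fold limit and lower in 3 of 3 libraries.

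The table also counts circular RNAs by position, and 2 of them start and end at exon boundaries of TBX20 on its strand. Another lies at GATA6 in the same way. They are shown because they are a separate readout of these loci. Each line gives 15 bases before the back-splice junction in lower case and 15 bases after it in capitals, 5′ to 3′, from RefSeq's Sscrofa11.1.
TBX20 exons 2 to 5, chromosome 18 from 38639363 to 38649051: tatcagaatcaactaAACAATTTGTTGAGA
TBX20 exons 4 to 6, chromosome 18 from 38644706 to 38656945: cactgatattgagagGCTGTATGTACATCC
GATA6 exons 3 to 5, chromosome 6 from 107293705 to 107295065: acgccagcttctgggCCTTCCTCCCGGCGG
The circle of exons 2 to 5 had 4 junction reads in control replicate 2 and 4 in OIM replicate 1. The circle of exons 4 to 6 had 3 reads in control replicate 1 and 3 in control replicate 2. The GATA6 circle had 2 reads in control replicate 1, 2 in OIM replicate 2 and 4 in OIM replicate 3. All 3 circles had 0 reads in every other library, the bFGF libraries included, and at these counts a difference between groups was not detectable.

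TBX2 and TBX3 are close paralogs that act mostly as repressors and hold back chamber genes in the cushions and the conduction system. TBX3 spans chromosome 14 from 37582704 to 37596767 (plus strand). It had 49.98, 53.95 and 48.9 CPM in control, 55.2, 67.8 and 49.7 CPM in OIM, and 160, 156 and 153 CPM in bFGF. Control and OIM libraries overlapped, and every bFGF library stood far above both. TBX3 rose 2.71-fold in bFGF against OIM (log2 fold change 1.44, SE 0.074, adjusted p = 9.94e-13 by edgeR). Its difference between OIM and control was 0.18 (adjusted p = 0.135 by edgeR). This value depended on single OIM libraries. It was 0.042 without OIM replicate 2, and 0.27 without OIM replicate 3, where it passed the adjusted p but not the fold limit.

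TBX2 spans chromosome 12 from 36878662 to 36887513 (minus strand). It had 12.4, 11.9 and 12.4 CPM in control, 14.2, 16.7 and 15.3 CPM in OIM, and 22.04, 21.8 and 24.05 CPM in bFGF. Its groups also formed 3 separate steps, in the opposite order to those of TBX20. In OIM against control its log2 fold change was 0.34 (SE 0.080, adjusted p = 0.00669 by edgeR), 26.4% higher and under the fold limit. In bFGF against OIM it rose by 0.55 (SE 0.078, adjusted p = 2.96e-06 by edgeR). This lies close to the fold limit, and without OIM replicate 1 the change was 0.50 and TBX2 was no longer called.

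GATA4 and GATA6 are zinc finger factors that bind the same short DNA motif and act together in the heart. GATA4 spans chromosome 14 from 14858470 to 14938156 (plus strand). It had 76.3, 79.9 and 73.7 CPM in control, 78.6, 71.8 and 72.3 CPM in OIM, and 92.9, 85.4 and 90.2 CPM in bFGF. Control and OIM overlapped, and the bFGF libraries were above both. In bFGF against OIM its log2 fold change was 0.27 (95% confidence interval 0.17 to 0.37, adjusted p = 5.14e-05 by edgeR), which is 20.6% higher and not called. Against control, OIM gave -0.047 (95% confidence interval -0.15 to 0.054).

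GATA6 went the other way with bFGF. It spans chromosome 6 from 107282709 to 107314725 (plus strand). It had 77.6, 81.5 and 78.4 CPM in control, 74.9, 72.9 and 77.1 CPM in OIM, and 47.3, 47.3 and 49.2 CPM in bFGF. Every bFGF library was below every other library. GATA6 fell by 0.65 on the log2 scale in bFGF against OIM (SE 0.044, adjusted p = 6.31e-11 by edgeR), which means that its level fell by 36.1%. Its log2 fold change in OIM against control was -0.079 (95% confidence interval -0.17 to 0.011). The start of GATA6 overlaps LOC100525229, on the opposite strand, by 47 bases. That gene was called lower too, at -0.66 (adjusted p = 0.0128 by edgeR), with 2.09 CPM in OIM and 1.33 CPM in bFGF. Whether counting used strand is not given in the sources used here, so reads in the overlap cannot be assigned to either gene.

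The window from 250 bases before to 50 bases after the start of each gene was searched on both strands for 3 motifs. The GATA motif AGATAA is present in 9.17% of 19556 promoters of protein-coding genes. The T-box half-site, searched as AGGTGT, is present in 12.2% of them, and the NFAT core, searched as GGAAAA, in 24.1%. GATA4 and TCF21 are shown because they were the promoters among the 10 that held the GATA motif. Capitals mark the match, which for GATA4 lies on the opposite strand, and each line runs 5′ to 3′ on the strand of the gene.
GATA4 first match, chromosome 14 from 14858386 to 14858413: aaccacttctcTTATCTatttttcctgt
GATA4 second match, chromosome 14 from 14858402 to 14858429: tatttttcctgTTATCTaattccaaggg
TCF21 match, chromosome 1 from 29978270 to 29978297: ctctattccccAGATAAattcctagtgt
The windows of the GATA4 matches overlap, and a match to the NFAT core lies between them. The NFAT core was also found in TBX2, NFATC4 and PRRX1, and the T-box half-site in none of the 10. These are matches of letters, and binding was not measured.

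The NFAT factors enter the nucleus when the calcium-activated phosphatase calcineurin removes their phosphates. NFATC1 had the largest change among the 10 genes in bFGF against OIM. It spans chromosome 1 from 145940099 to 146002897 (minus strand). It had 34.9, 39.3 and 38.8 CPM in control, 40.98, 33.95 and 39.2 CPM in OIM, and 6.81, 8.11 and 7.95 CPM in bFGF. Control and OIM overlapped, and all bFGF libraries lay far below them. NFATC1 fell 4.99-fold in bFGF against OIM (log2 fold change -2.32, SE 0.086, adjusted p = 5.84e-15 by edgeR). Its difference in OIM against control was 0.011 on the log2 scale (95% confidence interval -0.15 to 0.17). Of 10 endothelial markers, whose cells carry NFATC1 in the developing valve, 8 were called higher in bFGF against OIM and 0 lower. Over all genes, 17.7% were called higher and 18.4% lower. VWF at -0.43 and TIE1 at 0.13 were not called. Among the 8, KDR, TEK, EMCN, CLDN5 and SOX17 were low, at 0.169, 0.740, 0.996, 0.0601 and 0.440 CPM in OIM. PECAM1 had 12.8, 11.8 and 20.7 CPM and ERG 51.5, 66.8 and 137 CPM in control, OIM and bFGF. The part of the endothelial markers in the result was not tested.

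The non-coding gene LOC110261559 lies 2133 bases upstream of NFATC1 on the same strand. Its transcript had 11.6, 4.99 and 16.5 estimated counts in control, 11.3, 4.95 and 11.7 in OIM and 0 in each bFGF library. These counts are low and were not tested.

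NFATC4 spans chromosome 7 from 74918982 to 74929688 (minus strand). It had 44.7, 49.2 and 49.2 CPM in control, 51.3, 49.3 and 49.6 CPM in OIM, and 32.7, 32.7 and 31.5 CPM in bFGF. The bFGF libraries were below all others. NFATC4 fell by 0.63 on the log2 scale in bFGF against OIM (SE 0.052, adjusted p = 1.50e-09 by edgeR). For OIM against control the log2 fold change was 0.070 (95% confidence interval -0.037 to 0.18). Scaling by library totals without TMM shifted the median of all genes by 0.22 toward bFGF, and the share of calls that were higher went from 49.0% to 68.8%. Under it GATA6 at -0.42 and NFATC4 at -0.41 were no longer called. Subtracting the shift gives -0.64 and -0.63, nearly the TMM values by construction, so it does not decide between the scalings.

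HAND2 is needed for the cushion mesenchyme and the right ventricle. It spans chromosome 14 from 16460089 to 16462979 (plus strand). It had 36.1, 33.5 and 34.8 CPM in control, 32.8, 30.6 and 31.9 CPM in OIM, and 26.6, 24.4 and 26.5 CPM in bFGF. The groups did not overlap and were lower in that order. In bFGF against OIM its log2 fold change was -0.30 (95% confidence interval -0.42 to -0.17, adjusted p = 0.000205 by edgeR), under the fold limit. With library totals, which shift the median of all genes by 0.22, it was -0.074 (adjusted p = 0.293 by edgeR). Subtracting that shift gives back the TMM value of -0.30 by construction, so it does not decide between the scalings. The difference between OIM and control was -0.13 (adjusted p = 0.152 by edgeR). Its divergent neighbour LOC100517194, 872 bases away, differed by -0.12 in bFGF against OIM (95% confidence interval -0.36 to 0.11).

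TCF21 marks epicardial cells that become cardiac fibroblasts. It spans chromosome 1 from 29975280 to 29978273 (minus strand). It had 4.83, 4.08 and 4.35 CPM in control, 4.98, 4.28 and 4.95 CPM in OIM, and 9.04, 10.3 and 9.18 CPM in bFGF. Control and OIM overlapped, and the bFGF libraries were above both. TCF21 rose 2.01-fold in bFGF against OIM (log2 fold change 1.01, SE 0.12, adjusted p = 2.78e-07 by edgeR). The log2 fold change of TCF21 in OIM against control was 0.10 (95% confidence interval -0.16 to 0.36). Epicardial and mesothelial markers summed to 0.642 to 0.820 CPM in control, 0.476 to 0.756 in OIM and 0.242 to 0.481 in bFGF. Of the 2 that were tested, WT1 was called lower in bFGF against OIM (-1.84) and UPK3B was not called (-0.21). The call of WT1 was lost in 3 of 9 fits that left out a library and with no filter on low counts. LRRN4 had 0 counts in all libraries, and the part of these markers in the result was not tested.

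PRRX1 is a homeobox factor of connective tissue mesenchyme. It spans chromosome 4 from 80427682 to 80502689 (minus strand). It had 1099, 1093 and 1075 CPM in control, 932, 920.3 and 940 CPM in OIM, and 520.1, 513 and 500.2 CPM in bFGF. The groups formed 3 separate steps with little spread within each. The span of PRRX1 overlaps the non-coding gene LOC106510093, on the opposite strand, by 25534 bases. As at GATA6, whether counting used strand is not given in the sources used here. PRRX1 fell by 0.86 on the log2 scale in bFGF against OIM (SE 0.031, adjusted p = 4.11e-15 by edgeR), which means that its level fell by 45.1%. In OIM against control its log2 fold change was -0.23 (SE 0.031, adjusted p = 3.87e-05 by edgeR), under the fold limit and lower in 3 of 3 libraries. Of the 10 fibroblast markers, 5 were also called lower in bFGF against OIM and 1, VIM, higher (18.4% and 17.7% of all genes), and their part in the result was not tested.

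The comparison of bFGF with control shares its libraries with the others, so its values are given beside them. The same 8 genes were called, against 39.0% of all genes, with 3 higher (18.9%) and 5 lower (20.0%). The log2 fold changes of the called genes were 1.62 for TBX3, 1.11 for TCF21, 0.89 for TBX2, -2.31 for NFATC1, -1.24 for TBX20, -1.09 for PRRX1, -0.72 for GATA6 and -0.56 for NFATC4. GATA4 at 0.22 and HAND2 at -0.43 passed the adjusted p alone, as 70.2% of all genes did. In all 10 genes the libraries of these groups did not overlap, as in 73.7% of all genes, with 4 higher (36.4%) and 6 lower (37.3%).

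Levels can be compared between genes only per length, so CPM was divided by the merged exon length in kb. On this scale PRRX1 led in control with 199 ± 2.25 CPM per kb (SD, n = 3), at the 98.2 percentile of genes with a length. TBX20 at 24.8, HAND2 at 22.8 and GATA6 at 18.1 CPM per kb followed, with no overlap between neighbours. NFATC1 at 15.04, NFATC4 at 13.95 and GATA4 at 13.7 CPM per kb overlapped and could not be ordered. TBX3 at 9.94, TBX2 at 4.42 and TCF21 at 3.41 CPM per kb were lowest. The model of NFATC1 has 99 untranslated bases and those of the other 9 genes 614 or more, so its length is close to a coding length.

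In OIM the order was that of control, except that HAND2 at 20.8 CPM per kb lay above TBX20 at 19. In bFGF PRRX1 still led with 93.5 ± 1.85 CPM per kb, and TBX3 came next with 30.5 ± 0.681 (SD, n = 3). HAND2 at 16.95 and GATA4 at 16.1 CPM per kb overlapped, as did GATA6 at 10.9 and TBX20 at 10.5. NFATC4 followed at 9.44, and TBX2 at 8.20 and TCF21 at 7.35 CPM per kb overlapped. NFATC1 was lowest at 3.04 ± 0.284 CPM per kb (SD, n = 3). The place of GATA6 depended on the length used. Per kb of the longest transcript it was at 19.7 in OIM, above TBX20 with overlapping libraries, and at 12.6 in bFGF, above TBX20 without overlap.

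**Figure D3:**
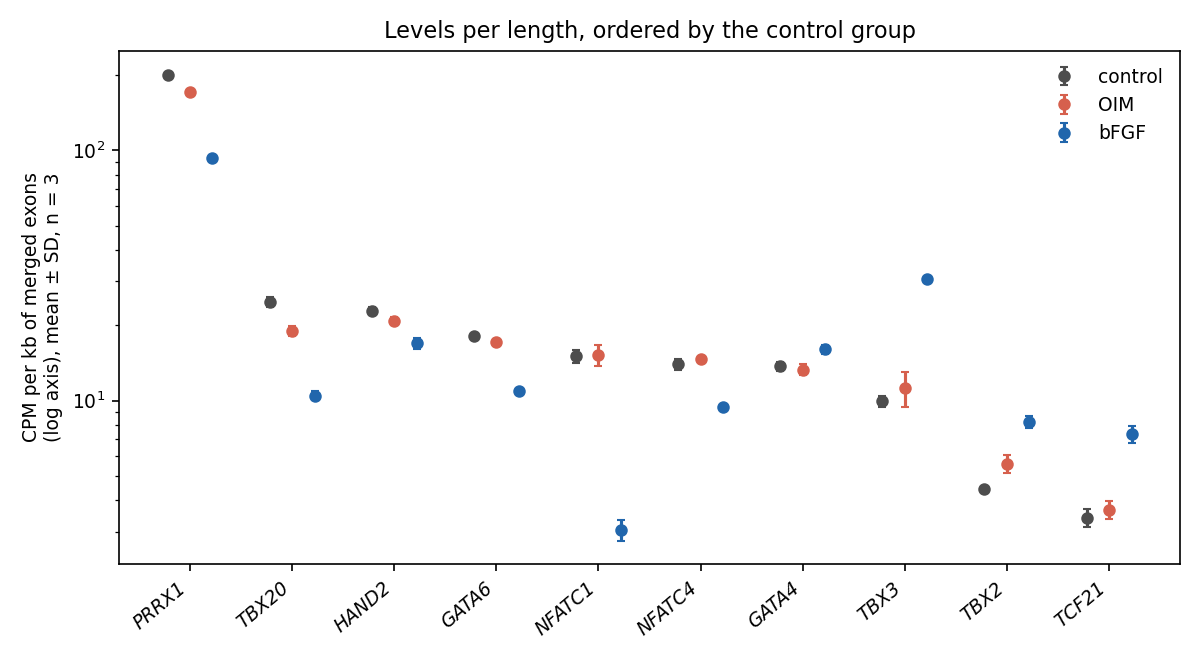
Level of each gene in CPM per kb of merged exons (vertical axis, log scale) as the mean ± SD of 3 libraries in control (grey), OIM (red) and bFGF (blue), with genes in the order of the control group. TBX3 moves from 9.94 in control to 30.5 in bFGF, and NFATC1 from 15.04 to 3.04.

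The genes with the profile most like that of each factor had the smallest root mean square difference in centred log2 CPM over the 9 libraries, among 13661 genes. For the factors that fell, these were CYR61 at 0.074 and DAPK3 at 0.086 for NFATC1, CTSK at 0.068 and CSTB at 0.072 for TBX20, LOC100738642 at 0.035 and CSTB at 0.042 for PRRX1, FAT1 at 0.029 and RCN3 at 0.031 for GATA6, and MYO10 at 0.034 and FN1 at 0.035 for NFATC4. For those that rose, they were FAM122B at 0.033 and LMNB2 at 0.055 for TBX3, LOC595122 at 0.084 and GATA2 at 0.098 for TCF21, and IMPDH2 at 0.050 and RPP38 at 0.057 for TBX2. GATA4 was nearest to FAM109A at 0.034 and PPP3CC at 0.037, and HAND2 to XPOT at 0.037 and CELF2 at 0.038. CSTB was near both TBX20 and PRRX1.

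Relatives, partners and known targets of the 10 factors were counted in 7 lists with 111 genes, of which 87 were tested. In bFGF against OIM, 10 were called higher and 20 lower, or 34.5% against 36.2% of all genes, with a median of -0.13. In OIM against control 2 were called, or 2.30% against 2.35% of all genes: CDKN2B higher and BMP2 lower. CTSK, at -0.49, lay just under the fold limit and was called lower in 4 of 9 fits that left out a library (-0.50 to -0.51: without control replicate 2 or 3 or OIM replicate 1 or 3). In bFGF against control 13 were called higher and 20 lower, or 37.9% against 39.0%. These pooled shares were near those of all genes. Single lists ran from 17.6% to 66.7% called in bFGF against OIM, and no list was tested as a set.

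Of 7 T-box relatives tested, 0 were called higher and 3 lower in bFGF against OIM, or 42.9% against 36.2% of all genes. TBX18, a factor of the epicardium and the sinus horns, had 164 ± 7.87 CPM in control, 160 ± 5.51 in OIM and 83.3 ± 3.54 in bFGF (SD, n = 3). It fell by 0.94 on the log2 scale (adjusted p = 2.69e-13 by edgeR). TBX6 and TBX15, at 2.95 and 0.289 CPM in OIM, differed by -0.50 and -1.67, and neither call was kept in every fit: TBX6 lost its call in 4 of 9 fits that left out a library and with library totals (-0.28), and TBX15 in 6 of 9, with library totals, with DESeq2 and with no filter on low counts. The log2 fold change of TBX15 was -2.09 to -1.21 over the 9 fits, -1.45 with library totals, -1.70 with DESeq2 and -1.68 with no filter, so that its call was lost on the adjusted p and not on the fold limit. TBX5, a partner of GATA4 in the heart, was at 1.43, 1.25 and 1.16 CPM in control, OIM and bFGF and differed by -0.10 (95% confidence interval -0.70 to 0.50), with the opposite sign under library totals.

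Of 6 GATA relatives and cofactors tested, 1 was called higher and 1 lower in bFGF against OIM. That was 33.3%, against 36.2% of all genes. GATA2, a factor of blood and endothelial cells, had 17.8, 17.7 and 37.4 CPM in control, OIM and bFGF and rose by 1.08 (adjusted p = 6.19e-12 by edgeR). GATA5, which acts in the endocardium, had 7.11, 7.71 and 4.76 CPM and fell by 0.70 (adjusted p = 0.000116 by edgeR), but was not called with library totals (-0.47). ZFPM2, the FOG cofactor of GATA4, was called against control at 0.54, but not without control replicate 1 (0.46). Against OIM it was 0.40, under the fold limit, and 0.62 and called with library totals.

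Of 17 genes in the NFAT and calcineurin list, 1 was called higher and 2 lower in bFGF against OIM. That was 17.6%, against 36.2% of all genes. NFATC2 had 26.7 ± 1.38 CPM in control, 21.9 ± 2.58 in OIM and 3.23 ± 0.518 in bFGF (SD, n = 3), and fell by 2.76 (adjusted p = 1.99e-14 by edgeR), the same direction as NFATC1. NFATC3 was at 63.5, 61.1 and 60.7 CPM and differed by -0.0080 (95% confidence interval -0.10 to 0.085), but by 0.21 under library totals. RCAN1, an inhibitor of calcineurin that NFAT factors induce, rose by 0.78 (adjusted p = 4.16e-06 by edgeR), or by 1.06 without OIM replicate 2, and its relative RCAN2 fell by 1.03 (adjusted p = 3.18e-07 by edgeR). NFATC2IP at 0.79 was called against control, and against OIM it was 0.50, just under the fold limit: it was called without OIM replicate 2 (0.66), without bFGF replicate 3 (0.52) and with the replicate block (0.51). NFAT5 at -0.55 was called against control, but not without control replicate 3 (-0.49) or with library totals (-0.32). Against OIM it was -0.50, just under the fold limit, and was called in 3 of 9 fits that left out a library (-0.51 without OIM replicate 1 or bFGF replicate 1 or 3) and with the filter at 1 CPM.

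Of 9 helix-loop-helix relatives tested, 1 was called higher and 3 lower in bFGF against OIM, or 44.4% against 36.2% of all genes. SCX, the tendon factor scleraxis, had 19.9 ± 0.689 CPM in control, 22.5 ± 4.59 in OIM and 0.367 ± 0.0796 in bFGF (SD, n = 3), and fell by 5.93 (adjusted p = 3.94e-16 by edgeR). MESP2 and MSC fell by 0.77 and 0.59, the latter not called with library totals (-0.37), and TWIST2 rose by 0.90. TWIST1, a factor of cushion mesenchyme, was at 30.9, 34.8 and 41.8 CPM and differed by 0.27, under the fold limit. HAND1, the closest relative of HAND2, had 0 counts in all 9 libraries, which allows up to 0.0445 to 0.0641 CPM (3 counts of a library's total, for counting error only).

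Of 15 homeobox factors and cofactors tested, 0 were called higher and 3 lower in bFGF against OIM. That was 20%, against 36.2% of all genes. PRRX2, the paralog of PRRX1, had 198 ± 5.05 CPM in control, 199 ± 8.55 in OIM and 109 ± 2.81 in bFGF (SD, n = 3), and fell by 0.87 (adjusted p = 1.70e-13 by edgeR), beside 0.86 for PRRX1. In OIM against control PRRX2 differed by 0.0071 (95% confidence interval -0.075 to 0.090), beside -0.23 for PRRX1, and the difference between the paralogs was not tested. MEIS3 and MEOX1 fell by 0.76 and 1.80, from 22.2 and 0.558 CPM in OIM.

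Of 21 other cardiac and valve factors tested, 4 were called higher and 3 lower in bFGF against OIM. That was 33.3%, against 36.2% of all genes. OSR1, a factor of the posterior second heart field, rose by 2.09 (adjusted p = 3.78e-14 by edgeR) from 7.37 to 31.5 CPM. FOXC1 and HOPX rose by 0.81 and 0.76. IRX3 and ISL1 fell by 1.60 and 1.02 from low levels of 1.34 and 2.04 CPM in OIM. WT1, at 0.233 CPM in OIM, differed by -1.84, and its call was lost without OIM replicate 3, bFGF replicate 1 or bFGF replicate 3 (-1.57, -1.97 and -1.43) and with no filter on low counts (-1.85), each time on the adjusted p. MEF2B was called against control at -1.08.

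Of 12 tested genes known as targets or partners of the 10 factors, 3 were called higher and 5 lower in bFGF against OIM. That was 66.7%, against 36.2% of all genes. POSTN, a matrix protein of the cushions, rose by 1.46 (adjusted p = 4.02e-16 by edgeR) from 599.6 to 1645 CPM. BMP2 rose by 1.92 after differing by -0.72 between OIM and control, where it was called lower. CDKN2B, a cell cycle inhibitor, rose in both comparisons, by 0.58 in OIM against control and 1.27 in bFGF against OIM. VCAN, the large proteoglycan of the valve, fell by 0.997 (adjusted p = 7.27e-15 by edgeR) from 5019 to 2515 CPM. CTSK, a protease that NFATC1 drives in osteoclasts, fell by 0.82. GJA5, a connexin that TBX2 and TBX3 repress, was at 0.475 CPM in OIM and differed by -1.51, and its call was lost without OIM replicate 1, bFGF replicate 1 or bFGF replicate 2 (-1.26, -1.37 and -1.38), each time on the adjusted p.

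**Figure D4:**
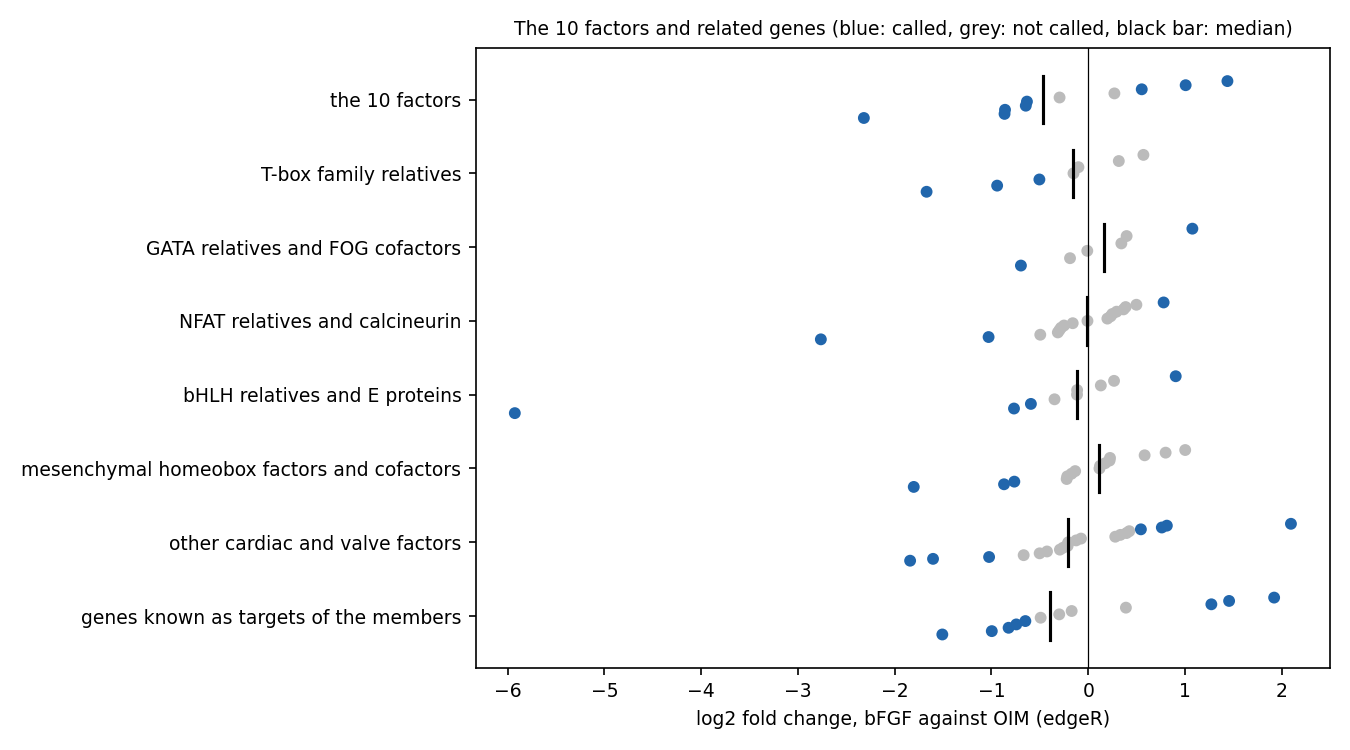
The log2 fold change in bFGF against OIM (horizontal axis, edgeR) of the 10 factors and of each tested gene in the 7 related lists, with called genes in blue, others in grey and the median of each list as a black bar. The medians run from -0.46 for the 10 factors to 0.17 for the GATA relatives, and the point farthest left is SCX at -5.93.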

How the data were processed

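RNA of 9 PVIC libraries was sequenced. For the deposited table, the submitters' processing notes name Trimmomatic, HISAT2 and StringTie, whereas the study's methods name Cutadapt and STAR, and the library kits named differ too. The same pig assembly is written Sscrofa11.1 in the notes and susScr11 in the methods. The program that counted is not given in the sources used here. The authors deposited counts that were not normalized: whole numbers for genes and circular RNAs, and estimated counts for non-coding transcripts. A further 19 columns have no name and were not used.

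Groups came from the labels. Gene counts were filtered with filterByExpr, scaled by TMM (factors 0.937 to 1.11) and fitted with edgeR 4.0.16 in R 4.3.3, all 3 groups in 1 model with 6 residual degrees of freedom. The SE is the log2 fold change over the square root of F. Pairs of replicates had a mean chi-square per gene of 4.64 to 11.3, and of 18.4 where OIM replicate 2 was in the pair, more than counting error gives. In counts simulated for bFGF against OIM over 13511 genes, 200 genes were changed by 1 on the log2 scale. The fit called 191 of them and 3 others. The changed genes were drawn from those with higher counts, in equal numbers up and down. They were far fewer than the 4939 genes called in the data, so the simulation does not give the error rates of the real comparison. Alternatives were DESeq2 1.42.0, other scalings, filters and limits, fits on 2 groups, a replicate block and leaving out each library.

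Gene models and bases are RefSeq's for Sscrofa11.1. The 10 genes, the lists and the rules were chosen with earlier results of these data known. Besides the 10, the text names 8 near relatives, the 2 nearest profiles of each factor, and in each list and comparison up to 3 called genes with the largest change in each direction. Single markers, genomic neighbours, and CTSK in OIM against control were named outside this rule, after their values were seen.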

Additional observations from a re-analysis of the deposited data

How the results depend on the processing

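Except for NFATC1 between OIM and control (-0.045 to 0.089 with single libraries left out), the 10 genes kept their direction in all 3 comparisons under every alternative run. The counts followed the fold limit. Without it 3 of the 10 and 17 of the related genes passed in OIM against control, 69 related genes in bFGF against OIM and 61 in bFGF against control (13.6%, 67.4% and 70.2% of all genes). With a limit of 1, 3 of the 10 and 14 related genes were called in bFGF against OIM (18.0% of all genes), 5 and 13 in bFGF against control (20.2%), and 0 related genes in OIM against control (0.666%), where unadjusted p-values with the limit of 0.5 gave 5 (4.02%). With library totals GATA6 and NFATC4 also lost their calls against control (-0.50 and -0.34), as did GATA5 (-0.35), TBX6 (-0.48), NFAT5 (-0.32), MESP2 (-0.47), MSC (-0.42) and MEIS3 (-0.45), whereas TWIST1 gained one there (0.66) and NFATC2IP one against OIM (0.72), and the sign changed for TBX5 in bFGF against OIM (0.12) and for NFATC3 there (0.21) and against control (0.16). GATA2 in OIM against control, near 0, turned to 0.0011 with DESeq2 and 0.00057 with median-of-ratios factors. Leaving out single libraries changed the sign of uncalled differences between OIM and control, with ranges of -0.060 to 0.0067 for TBX18, -0.022 to 0.041 for PRRX2, -0.031 to 0.016 for GATA2, -0.10 to 0.0034 for NFAT5, -0.12 to 0.24 for TWIST2, -0.12 to 0.041 for MSC, -0.14 to 0.091 for HOPX, -0.34 to 0.067 for WT1, -0.17 to 0.13 for IRX3, -0.28 to 0.25 for GJA5 and -0.017 to 0.050 for VCAN. Against control the calls of WT1 and GJA5 were lost in 3 and 4 of 9 such fits, on the adjusted p, at -1.80 to -1.50 and -1.34 to -1.26. That of GATA5 was lost in 1, on the fold limit (-0.48). In bFGF against OIM leaving out libraries changed the sign for TBX5 (-0.21 to 0.13) and NFATC3 (-0.039 to 0.017). Beyond what each alternative changes by construction, the cause was not tested. Same-numbered libraries did not deviate together (correlations of -0.032 to 0.0035, and 0 of 9 libraries nearest to their own number). No pairing by number was thus detected, which does not exclude a shared pig or culture. With the replicate block 0, 8 and 8 of the 10 genes were called in OIM against control, bFGF against OIM and bFGF against control, as without it. Of all 13662 genes tested, 309, 4917 and 5285 were called there. Among the near relatives and the called list genes named, it changed 1 call, that of NFATC2IP in bFGF against OIM (0.51). Single markers, genomic neighbours and nearest profiles outside these were not followed through the alternatives.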
